A study of Mus musculus with 7 samples.

Results

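The endothelial and angiogenesis genes described here are 45 listed genes that mark blood and lymphatic vessels or carry the signals that shape them. They were taken by name from 52230 genes in the ovarian stroma of mice lacking the progesterone receptor (PGR), and all 45 were among the 19233 genes that passed a filter on low counts. They were ordered as 20 genes of endothelial identity, 17 genes of VEGF, angiopoietin and apelin signalling (7 ligands, 8 receptors and 2 tip cell genes), 3 lymphatic markers and 5 adhesion and anticoagulant molecules. RNA-seq was performed on 4 wildtype (WT, PGR +/+) and 3 knockout (KO, PGR -/-) libraries of the PRKO line (Pgrtm1Bwo), which is null for both PGR isoforms in the whole body. Females of both genotypes, 21 to 27 days old per the sample labels, received 5 IU PMSG (eCG), 5 IU hCG 44 h later, and were killed 8 h post-hCG, shortly before ovulation. Each library was made from tissue pooled from 3 mice. Granulosa cells were expelled by puncturing the ovary, and the residual tissue, called stroma here, holds theca, fibroblasts, vessels, blood cells, surface epithelium and remaining granulosa cells. The comparison asks which vessel genes differ in stroma that lacks PGR.

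Blood vessels of a growing follicle lie in the theca layer, outside the basement membrane, and reach the granulosa layer only as the follicle ruptures and the corpus luteum forms. VEGF-A binds the endothelial receptors FLT1 and KDR with NRP1 as a co-receptor, while VEGF-C and FLT4 act mainly on lymphatic vessels. ANGPT1 from perivascular cells activates the receptor TEK and steadies vessels, ANGPT2 from endothelial cells can block it, and apelin guides sprouting endothelium through its receptor APLNR.

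The disrupted gene was examined first. *Pgr* averaged 22.2 ± 6.16 CPM (WT, SD, n = 4) against 6.74 ± 0.736 CPM (KO, SD, n = 3), where CPM is the read count scaled to library size after TMM normalization, and the genotypes did not overlap (log2 fold change −1.72, SE 0.202, adjusted p = 0.0544 in edgeR and 1.25e-14 in DESeq2). Between 47372446 and 63416875 reads were assigned per library. The 20 identity genes summed to 1285 to 1504 CPM in WT and 1266 to 1367 CPM in KO libraries, so endothelium was present in all of them. Markers of granulosa cells were present as well, at 2726 to 3846 CPM in WT and 2887 to 3839 CPM in KO libraries.

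None of the 45 genes was called, in edgeR's quasi-likelihood test or in DESeq2, where a call needed an adjusted p no higher than 0.05 and a log2 fold change of 0.5 or more in size. Few genes did in the whole stroma (0.0104% of those tested in edgeR and 0.749% in DESeq2). At an unadjusted edgeR p under 0.05 there were 12 members (26.7%), 11 lower and 1 higher in KO, where 8.94% of all tested genes met this limit, 5.10% lower and 3.84% higher. DESeq2 gave an adjusted p within 0.05 to 2 members, the apelin receptor gene *Aplnr* and the podoplanin gene *Pdpn*, both lower in KO (0.816% of all tested genes), with fold changes below the call's limit. Of the 45 log2 fold changes, 33 were negative. Their median was −0.12, against −0.00101 over all tested genes, of which 50.3% were negative. In 8 members (*Aplnr*, *Pdpn*, *Flt4*, *Flt1*, *Cdh5*, *Tek*, *Apln* and *Fli1*) every KO library was below every WT library, and in no member was every KO library above, where 5.12% and 3.93% of all tested genes separated in these directions. The count of 12 depended on single libraries and was 6 without KO replicate 3 and 18 without WT replicate 4, the highest of these counts. The members were chosen with earlier results of these data known, and the identity genes moved together between libraries. The shares above are therefore a description and not a test of the list. Bulk tissue cannot tell fewer vessel cells from less RNA per vessel cell.

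**Figure D1:**
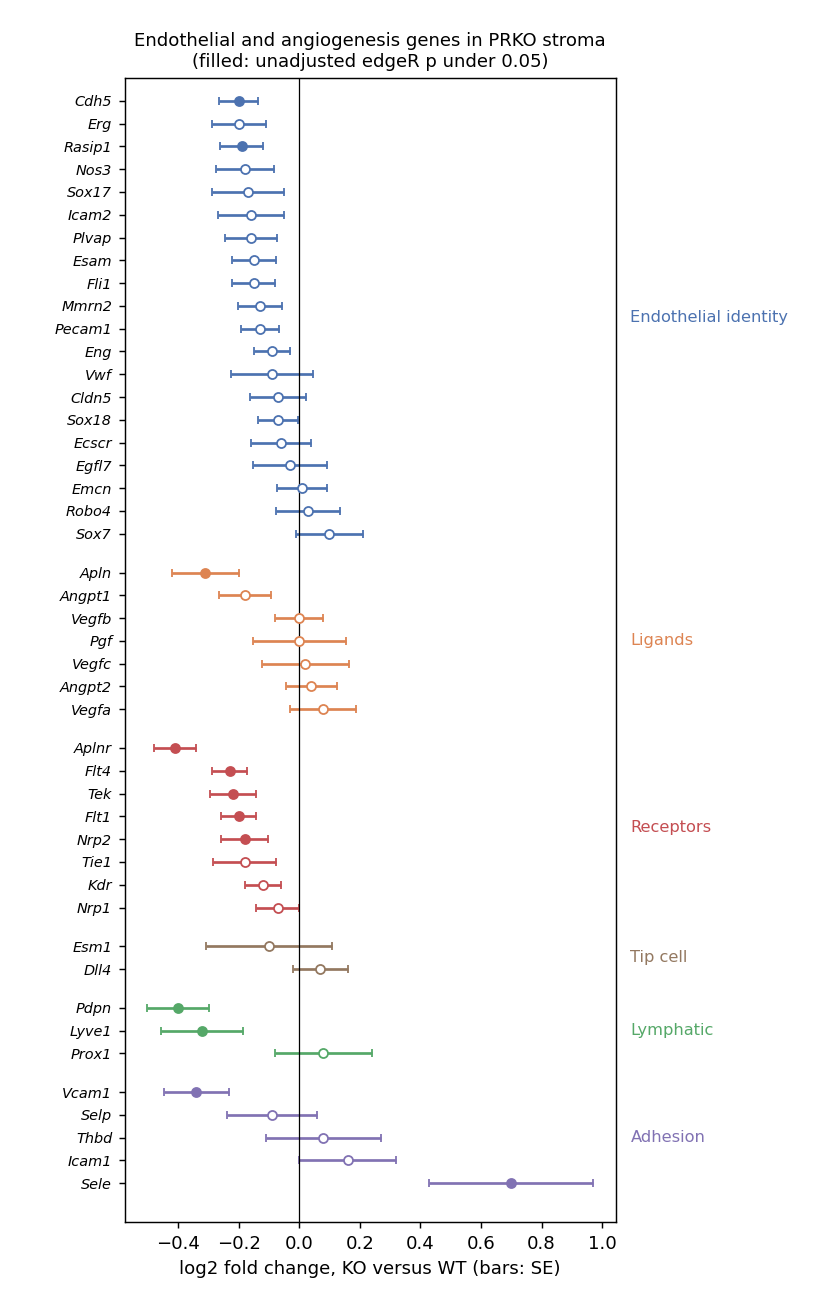
Log2 fold change (KO versus WT, edgeR) of the 45 genes by group, with bars of 1 SE and filled points for an unadjusted p under 0.05. Receptor genes all lie left of 0, ligand genes centre on 0, and *Sele* stands at 0.70 with the longest bar.

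Endothelial identity genes encode junction proteins, surface proteins and transcription factors by which vessel cells are recognised. Their log2 fold changes were small, from −0.20 to 0.10 with a median of −0.13, and 17 of 20 were negative. The median was −0.08 without WT replicate 1. No identity gene passed the adjusted test in edgeR, and the lowest adjusted p was 0.397. Unadjusted, 2 of 20 were below 0.05, both lower in KO, and 18 were not. Of all tested genes, 8.94% met this limit, 5.10% lower and 3.84% higher in KO.

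*Cdh5* encodes VE-cadherin, the adhesion protein of endothelial junctions, and lies on chromosome 8 of GRCm39 from 104828231 to 104871143. It was at 231, 226, 222 and 205 CPM in WT replicates 1 to 4 and at 197, 183 and 199 CPM in KO replicates 2 to 4. The KO libraries were all below the WT libraries, by a narrow margin to WT replicate 4. The mean was 221 ± 11.6 CPM (WT, SD, n = 4) against 193 ± 8.87 CPM (KO, SD, n = 3), a log2 fold change of −0.20 (SE 0.064, adjusted p = 0.397 in edgeR). *Rasip1*, which encodes a RAS-interacting protein needed for vessel lumens, was at 51.5, 49.2, 51.1 and 43.5 CPM in WT and at 45.2, 41.1 and 42.0 CPM in KO. WT replicate 4 lay within the KO range, and the log2 fold change was −0.19 (SE 0.072, adjusted p = 0.475 in edgeR).

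The identity genes with the highest level per transcript length were *Egfl7*, which encodes a matrix protein secreted by endothelium, at a mean of 212 TPM (a unit scaled for transcript length and library total), and *Eng*, which encodes the TGF-beta co-receptor endoglin, at 144 TPM. *Egfl7* was at 116, 104, 101 and 86.0 CPM in WT and at 116, 97.6 and 85.6 CPM in KO. *Eng* was at 296, 287, 289 and 276 CPM in WT and at 284, 260 and 263 CPM in KO. Both overlapped between genotypes, with log2 fold changes of −0.03 (SE 0.121) and −0.09 (SE 0.059) and adjusted p of 0.966 and 0.687 in edgeR. *Pecam1*, the gene of the junction protein CD31 by which endothelium is most often stained, averaged 172 ± 10.9 CPM (WT, SD, n = 4) against 157 ± 3.13 CPM (KO, SD, n = 3).

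Among the remaining identity genes, *Erg* and *Fli1*, which encode ETS-family transcription factors of endothelium, had log2 fold changes of −0.20 and −0.15. *Sox17* (−0.17), *Sox18* (−0.07) and *Sox7* (0.10), of the SOX factors that act in vessel specification, did not share a sign. *Nos3* (−0.18), the endothelial nitric oxide synthase gene, *Icam2* (−0.16), *Plvap* (−0.16), *Esam* (−0.15), *Mmrn2* (−0.13), *Vwf* (−0.09), *Cldn5* (−0.07), *Ecscr* (−0.06), *Emcn* (0.01) and *Robo4* (0.03) completed the group.

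The identity genes moved together between libraries of 1 genotype. WT replicate 1 was the highest of the 4 WT libraries for 17 of the 20 genes, and WT replicate 4 the lowest for 17. Relative to the WT mean of each gene, the median log2 level of the 20 genes was 0.11, 0.02, 0.01 and −0.14 in WT replicates 1 to 4 and −0.09, −0.14 and −0.14 in KO replicates 2 to 4. WT replicate 4 was thus as low as the KO libraries.

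**Figure D2:**
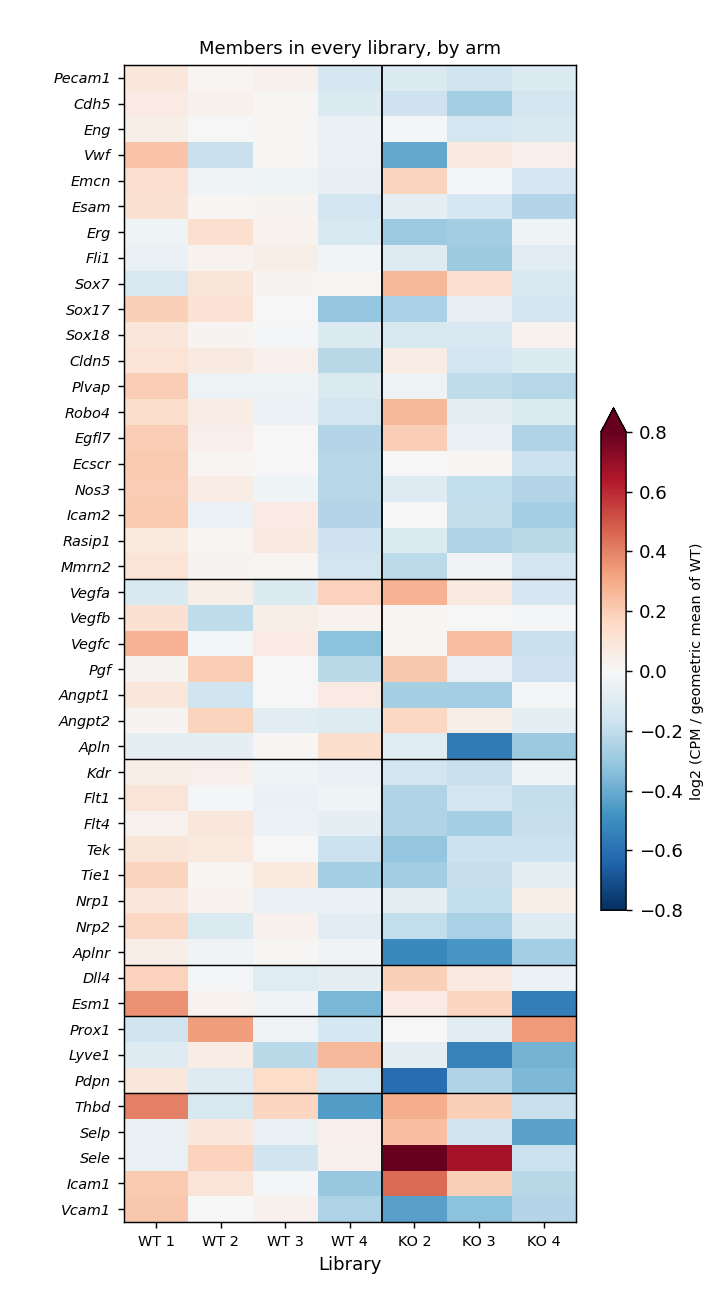
Log2 of CPM over the geometric mean of WT for the 45 genes (lines between groups, from the top: identity, ligands, receptors, tip cell, lymphatic, adhesion) in the 7 libraries. WT replicate 1 is red for most identity genes and WT replicate 4 blue, while *Aplnr* is pale in all WT and blue in all KO libraries.

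The ligands differed little between genotypes. Their log2 fold changes had a median of 0.00, 3 of 7 were negative, and apelin was the only ligand with an unadjusted p under 0.05. *Vegfa*, the gene of the main VEGF, had the highest level, 134 ± 17.5 TPM (WT, SD, n = 4) against 144 ± 11.1 TPM (KO, SD, n = 3). It was at 144, 162, 145 and 178 CPM in WT and at 190, 165 and 143 CPM in KO. KO libraries held both the highest and the lowest value, and the log2 fold change was 0.08 (SE 0.109, adjusted p = 0.879 in edgeR), with −0.03 without KO replicate 2.

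*Vegfb*, whose product binds FLT1, was at 24.3, 19.4, 23.1 and 22.8 CPM in WT and at 22.6, 22.4 and 22.1 CPM in KO. Its means were 22.4 ± 2.09 and 22.4 ± 0.286 CPM, with a log2 fold change of −0.00 (SE 0.079, adjusted p = 0.997 in edgeR). The remaining VEGF family members were *Vegfc*, at 0.02 (SE 0.144), and *Pgf*, which encodes placental growth factor, at 0.00 (SE 0.153) on the log2 scale.

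*Apln*, which encodes apelin, lies on chromosome X from 47114019 to 47123775. It was at 22.2, 22.3, 23.6 and 25.8 CPM in WT and at 21.9, 15.8 and 19.1 CPM in KO. All KO libraries were below all WT libraries, although KO replicate 2 was close to WT replicate 1. The log2 fold change was −0.31 (SE 0.110, adjusted p = 0.441 in edgeR) and −0.19 without KO replicate 3.

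The angiopoietin genes were expressed at similar levels. *Angpt1* averaged 37.4 ± 2.81 CPM (WT, SD, n = 4) against 33.0 ± 3.42 CPM (KO, SD, n = 3), a log2 fold change of −0.18 (SE 0.086, adjusted p = 0.574 in edgeR). *Angpt2* averaged 44.1 ± 4.07 and 45.4 ± 3.78 CPM, a log2 fold change of 0.04 (SE 0.085, adjusted p = 0.922 in edgeR). The ratio of *Angpt2* to *Angpt1* in TPM was 1.46, 1.82, 1.32 and 1.35 in WT and 1.87, 1.75 and 1.35 in KO. Groups overlapped, and on the log2 scale the ratio was 0.56 ± 0.21 (WT, SD, n = 4) against 0.71 ± 0.25 (KO, SD, n = 3), a difference of 0.15 (two-sided exact permutation test over 35 splits, p = 0.343, adjusted p = 0.762 over 4 tests of ratios and isoform shares). With 35 splits the smallest p is 0.0286. The difference was 0.06 without KO replicate 2, 0.10 without WT replicate 3, 0.25 without WT replicate 2 and 0.29 without KO replicate 4, and 0.23 with expected counts.

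*Vegfa* transcripts encode ligands that differ in their hold on the matrix. As annotated, Vegfa-201 encodes 146 residues and Vegfa-202 encodes 368 residues from an extended start. The 2 transcripts have the same outer ends, so the extended start belongs to the annotated coding region and is not a difference in where the transcripts begin. The exon that follows is in Vegfa-202 and not in Vegfa-201, and encodes the part of VEGF-A that binds heparin. It is shown because it tells the forms apart, and lies in the coding region at chr17:46331917-46332048 on the minus strand of GRCm39.
Vegfa-202 exon: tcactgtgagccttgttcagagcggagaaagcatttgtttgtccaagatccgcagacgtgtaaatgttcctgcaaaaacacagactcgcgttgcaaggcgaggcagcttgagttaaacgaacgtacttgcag
The form with this exon had the larger share. Vegfa-202 held 54.0, 60.0, 54.3 and 67.8% of the protein-coding *Vegfa* TPM in WT and 58.5, 58.3 and 60.4% in KO. Vegfa-201 held 43.1, 33.6, 41.1 and 30.2% in WT and 38.9, 40.5 and 38.2% in KO. The KO shares lay within the WT range for both transcripts, and the mean differed between genotypes by 0.03 percentage points for Vegfa-202 (two-sided exact permutation test, p = 1.0) and by 2.21 for Vegfa-201 (p = 0.571, adjusted p = 0.762). Transcripts annotated as retaining an intron took 49.0 to 52.4% of all *Vegfa* TPM and 15.4 to 17.1% of its reads.

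The 8 receptor genes had negative log2 fold changes, from −0.41 to −0.07 with a median of −0.19. An unadjusted p under 0.05 was found for 5 of 8 (5.10% of all tested genes, in this direction), and in 4 of 8 every KO library was below every WT library (5.12% of all tested genes). The genotypes overlapped in the others. None passed the adjusted test in edgeR, where the lowest adjusted p was 0.141, and 1 of them, *Aplnr*, had an adjusted p under 0.05 in DESeq2.

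*Aplnr* encodes the apelin receptor of venous and sprouting endothelium and lies on chromosome 2 from 84966569 to 84970267. It was at 108, 102, 105 and 102 CPM in WT replicates 1 to 4 and at 73.0, 75.5 and 86.3 CPM in KO replicates 2 to 4. The 4 WT libraries were nearly equal, and the highest KO library was well below the lowest of them. The mean was 104 ± 3.21 CPM (WT, SD, n = 4) against 78.3 ± 7.10 CPM (KO, SD, n = 3), or 75.1% of WT. This is a log2 fold change of −0.41 (SE 0.068), with an adjusted p of 0.141 in edgeR and 0.000160 in DESeq2. The fold change ranged from −0.49 to −0.37 when each library was left out in turn, and the adjusted p from 0.000160 to 0.540 over all alternatives.

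The receptor was also set against *Pecam1* within each library, as a description. *Aplnr* had the most negative log2 fold change of the members, so a lower ratio is not a separate result. The share of all genes that would separate in this ratio was not computed. The ratio of *Aplnr* to *Pecam1* CPM was 0.597, 0.582, 0.595 and 0.651 in WT and 0.459, 0.492 and 0.544 in KO, without overlap between genotypes. The ratio of *Cdh5* to *Pecam1* was 1.26 to 1.31 in WT and 1.19 to 1.25 in KO, also without overlap. Those of *Flt1*, *Flt4* and *Tek* overlapped between genotypes.

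**Figure D3:**
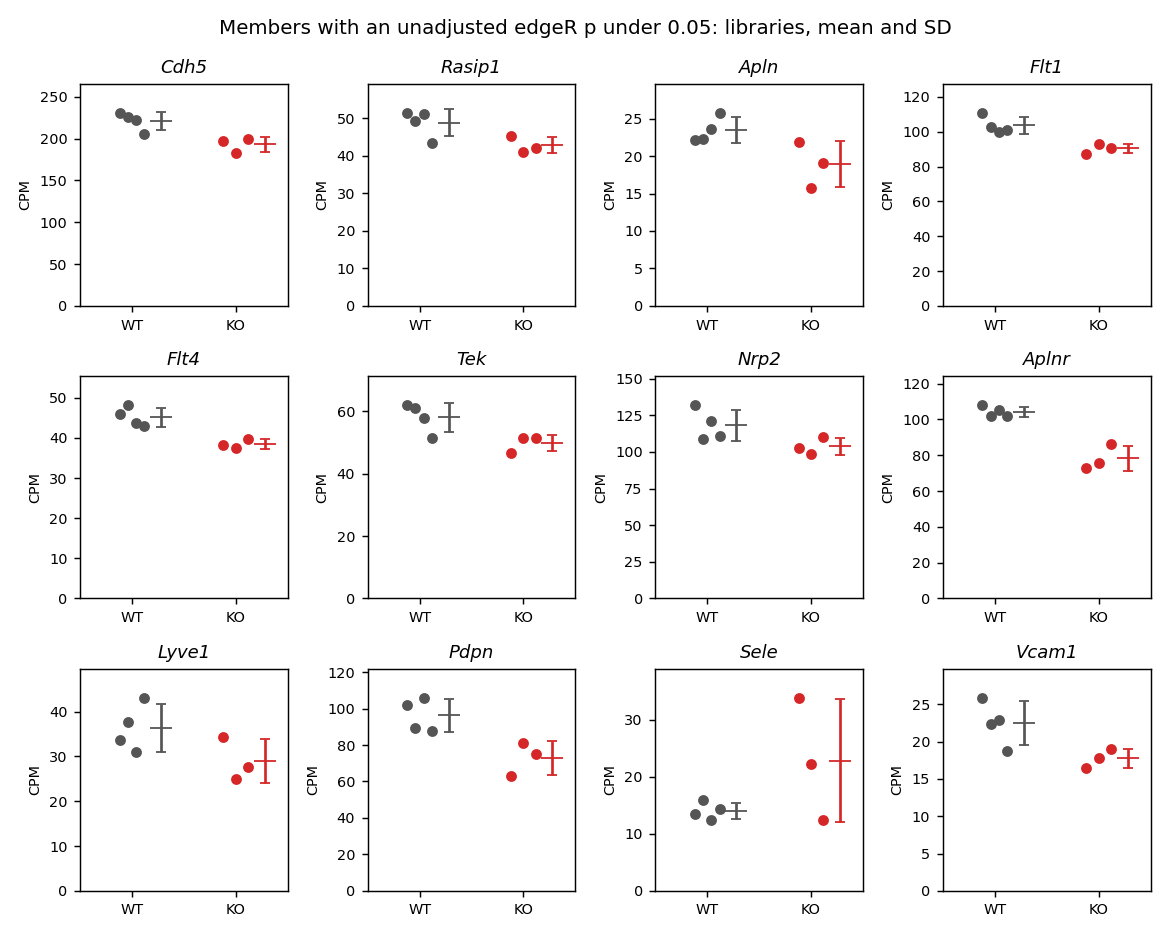
CPM of the 12 genes with an unadjusted edgeR p under 0.05 in each library (points), with the mean and SD beside them, on axes that start at 0. *Aplnr* shows tight WT libraries above all KO libraries, and for *Sele* the KO libraries spread from 12.4 to 33.9 CPM.

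*Flt4* encodes VEGF receptor 3, the receptor of VEGF-C, which lymphatic and sprouting blood endothelium carry. It was at 46.0, 48.2, 43.8 and 42.9 CPM in WT and at 38.3, 37.5 and 39.8 CPM in KO. The groups did not overlap, and the log2 fold change was −0.23 (SE 0.059, adjusted p = 0.313 in edgeR and 0.0836 in DESeq2). *Flt1*, which encodes VEGF receptor 1, a high-affinity receptor that limits VEGF-A signalling, was at 111, 103, 99.6 and 101 CPM in WT and at 87.5, 93.0 and 90.7 CPM in KO. Again no KO library reached a WT library, with a log2 fold change of −0.20 (SE 0.057, adjusted p = 0.355 in edgeR and 0.136 in DESeq2).

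*Tek*, the gene of the angiopoietin receptor TIE2, was at 62.0, 61.0, 57.8 and 51.4 CPM in WT and at 46.7, 51.4 and 51.4 CPM in KO. WT replicate 4 and the upper KO libraries differed only beyond these digits. The log2 fold change was −0.22 (SE 0.076, adjusted p = 0.423 in edgeR). *Tie1*, the orphan partner of TIE2, averaged 88.7 ± 11.4 CPM (WT, SD, n = 4) against 78.0 ± 5.64 CPM (KO, SD, n = 3), with a log2 fold change of −0.18 (SE 0.103, adjusted p = 0.646 in edgeR).

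*Nrp2*, the gene of a co-receptor that pairs with FLT4, was at 132, 109, 121 and 111 CPM in WT and at 103, 98.7 and 110 CPM in KO. KO replicate 4 lay above WT replicate 2, and the log2 fold change was −0.18 (SE 0.078, adjusted p = 0.537 in edgeR). The most abundant receptor genes per length were *Nrp1* at a mean of 63.4 TPM and *Kdr* at 45.8 TPM. *Nrp1*, which other stromal cells also express, was at 157, 151, 142 and 143 CPM in WT and at 141, 129 and 153 CPM in KO. *Kdr*, which encodes VEGF receptor 2, the main signalling receptor of VEGF-A, was at 190, 189, 179 and 176 CPM in WT and at 165, 162 and 179 CPM in KO. Both overlapped between genotypes, with log2 fold changes of −0.07 (SE 0.071, adjusted p = 0.807) and −0.12 (SE 0.060, adjusted p = 0.596 in edgeR).

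*Flt1* yields a membrane receptor of 1333 residues (Flt1-202) and a secreted form of 688 residues (Flt1-203), which traps VEGF-A outside the cell. The secreted form ends in residues read from a stretch that the membrane form splices out. The coding bases of that tail, shown because they set the secreted form apart, lie at chr5:147575943-147576034 on the minus strand of GRCm39.
Flt1-203 tail: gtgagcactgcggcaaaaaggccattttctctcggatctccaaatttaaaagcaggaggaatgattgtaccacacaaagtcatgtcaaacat
The secreted form held 36.8, 33.0, 33.6 and 35.8% of the protein-coding *Flt1* TPM in WT and 36.7, 35.7 and 34.8% in KO. All KO shares lay within the WT range. The mean was 34.8 ± 1.79% (WT, SD, n = 4) against 35.7 ± 0.985% (KO, SD, n = 3), a difference of 0.94 percentage points (two-sided exact permutation test, p = 0.457, adjusted p = 0.762). It was 0.34 without WT replicate 2, 0.44 without KO replicate 2, 0.56 without WT replicate 3, 1.43 without KO replicate 4 and 1.61 without WT replicate 1. Flt1-202 was at 15.1 ± 0.569 TPM (WT, SD, n = 4) against 13.5 ± 1.01 TPM (KO, SD, n = 3), and Flt1-203 at 8.07 ± 0.386 and 7.47 ± 0.247 TPM.

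**Figure D4:**
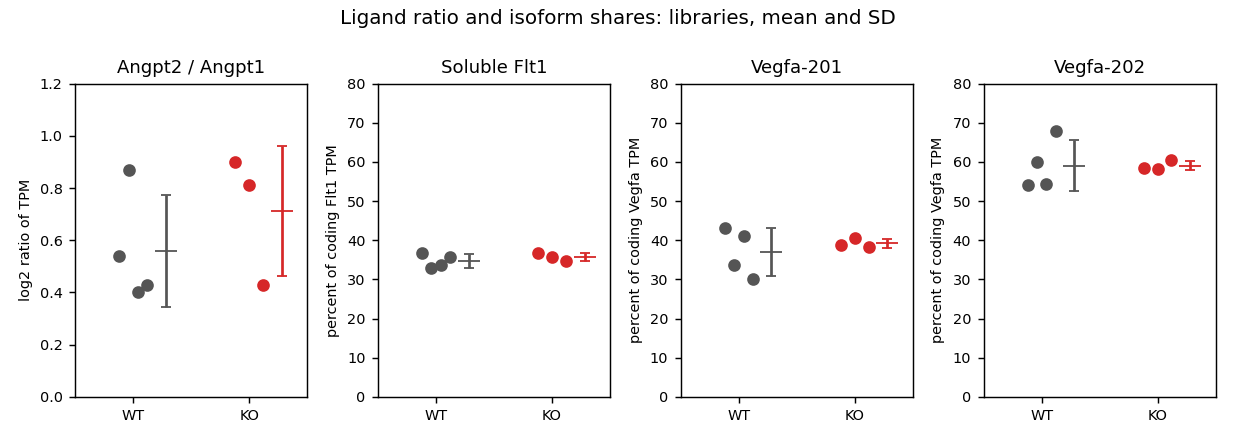
The log2 ratio of *Angpt2* to *Angpt1* TPM and the shares (percent of protein-coding TPM) of Flt1-203, Vegfa-201 and Vegfa-202 in each library (points), with the mean and SD. KO libraries lie within or across the WT range in all panels, and WT replicate 4 holds the highest Vegfa-202 share, 67.8%.

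Promoter sequence was available for 26 of the 45 genes, from the RefSeq table of GRCm38.p6, an earlier assembly than the GRCm39 used for the genes above. It was cut to the 250 bases before the start. The core of the site bound by ETS factors such as ERG and FLI1 (CGGAAG or AGGAAG on either strand) was found in the promoters of 12 of these 26 genes. Counted by promoter, 39.4% of 33 member promoters and 39.2% of 32851 promoters in the table held it. Shown with this core in capitals are the promoters of the receptor and ligand genes that had an entry and did not overlap between genotypes, and of *Sele*, the member with the largest positive fold change. In the order printed they lie at chr5:147726012-147726261 (minus strand), chr11:49609429-49609678 (plus strand), chr4:94739039-94739288 (plus strand), chrX:48034854-48035103 (minus strand) and chr1:164047984-164048233 (plus strand) of GRCm38.p6.
Flt1: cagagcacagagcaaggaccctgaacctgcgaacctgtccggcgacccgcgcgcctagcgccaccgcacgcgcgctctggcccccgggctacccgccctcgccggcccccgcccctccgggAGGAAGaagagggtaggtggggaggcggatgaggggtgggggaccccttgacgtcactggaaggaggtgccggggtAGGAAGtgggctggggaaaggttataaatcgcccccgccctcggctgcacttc
Flt4: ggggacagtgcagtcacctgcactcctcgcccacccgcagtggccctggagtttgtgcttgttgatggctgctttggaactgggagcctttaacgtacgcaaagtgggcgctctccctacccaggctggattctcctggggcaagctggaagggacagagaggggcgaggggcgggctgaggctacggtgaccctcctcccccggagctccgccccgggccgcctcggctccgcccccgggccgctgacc
Tek: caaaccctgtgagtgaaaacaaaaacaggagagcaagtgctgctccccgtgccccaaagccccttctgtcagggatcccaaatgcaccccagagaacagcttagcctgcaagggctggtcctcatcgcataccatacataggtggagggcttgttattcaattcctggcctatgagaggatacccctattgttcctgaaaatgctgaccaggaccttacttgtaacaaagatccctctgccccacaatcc
Apln: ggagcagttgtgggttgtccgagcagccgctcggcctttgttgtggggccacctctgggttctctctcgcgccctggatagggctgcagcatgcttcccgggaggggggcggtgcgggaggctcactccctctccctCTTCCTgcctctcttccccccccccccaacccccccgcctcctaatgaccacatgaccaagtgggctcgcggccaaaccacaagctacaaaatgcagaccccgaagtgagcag
Sele: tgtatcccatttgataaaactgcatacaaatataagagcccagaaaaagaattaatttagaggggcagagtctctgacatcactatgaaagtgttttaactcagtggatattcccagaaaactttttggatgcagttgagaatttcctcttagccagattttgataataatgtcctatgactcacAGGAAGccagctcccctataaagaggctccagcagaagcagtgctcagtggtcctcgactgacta
*Flt1* held 2 of these letter runs, *Apln* and *Sele* 1 each (in *Apln* on the opposite strand) and *Flt4* and *Tek* none. The full progesterone response element (GNACA and TGTNC, 3 bases apart), which PGR can bind, was in none of the member promoters and in 0.4% of all. Its TGTTCT arm was in 6.1% of member promoters and 16.1% of all. The ACGTG core read by hypoxia-inducible factors was in 6.1% and 16.6%, and the NF-kB letters, GGGAN followed directly by TTTCC, in none and 0.4%. All were searched on both strands, the arm within the full element included, and a match is a run of letters, not a bound site. Sites with other letters than those searched, for NF-kB as for the rest, would be missed, so a count of none does not mean that a site is absent.

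The tip cell genes mark endothelium at the front of a sprout. *Dll4*, the Notch ligand of tip cells, was at 20.3, 17.7, 16.7 and 17.0 CPM in WT and at 20.4, 18.8 and 17.3 CPM in KO. *Esm1*, which encodes endocan, was at 9.59, 7.61, 7.31 and 5.77 CPM in WT and at 7.80, 8.38 and 5.07 CPM in KO. Both overlapped between genotypes, with log2 fold changes of 0.07 (SE 0.090, adjusted p = 0.856) and −0.10 (SE 0.208, adjusted p = 0.930 in edgeR).

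The 3 lymphatic markers had a median log2 fold change of −0.32. Of these, *Pdpn* and *Lyve1* had an unadjusted p under 0.05, both with lower values in KO (5.10% of all tested genes), and *Prox1* did not. *Pdpn*, on chromosome 4 from 142990871 to 143026143, encodes podoplanin, a surface glycoprotein of lymphatic endothelium that mesothelial and fibroblast-like cells carry too. It was at 102, 89.3, 106 and 87.6 CPM in WT and at 62.8, 81.1 and 74.8 CPM in KO. The groups did not overlap. The mean was 96.3 ± 9.22 CPM (WT, SD, n = 4) against 72.9 ± 9.32 CPM (KO, SD, n = 3), a log2 fold change of −0.40 (SE 0.102), with an adjusted p of 0.313 in edgeR and 0.0415 in DESeq2.

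*Lyve1* encodes a hyaluronan receptor of lymphatic endothelium that some macrophages carry too. It was at 33.6, 37.6, 31.0 and 43.1 CPM in WT and at 34.3, 24.9 and 27.7 CPM in KO. KO replicate 2 lay within the WT range, and the log2 fold change was −0.32 (SE 0.135, adjusted p = 0.530 in edgeR). *Prox1*, the transcription factor gene that sets lymphatic fate and the lowest member at 1.05 TPM, averaged 5.23 ± 0.880 CPM (WT, SD, n = 4) against 5.54 ± 0.905 CPM (KO, SD, n = 3), with a log2 fold change of 0.08 (SE 0.160, adjusted p = 0.917 in edgeR).

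Among 4 further lymphatic genes none had an unadjusted p under 0.05, with log2 fold changes from −0.15 to 0.07. *Ccl21a*, which encodes a chemokine of lymphatic endothelium, had the highest level of them and a log2 fold change of −0.15 (SE 0.246, adjusted p = 0.906 in edgeR). *Reln*, whose product reelin lymphatic endothelium secretes, had 0.06 (SE 0.110). Markers of the surface epithelium, a podoplanin-bearing layer, summed to 41.0 to 81.7 CPM in WT and 29.4 to 47.9 CPM in KO over 8 genes, none of them at 0 in every library, and all 8 had negative log2 fold changes (median −0.49). DESeq2 called 1 of them, *Upk3b*, where it called 0.749% of all tested genes. Leukocyte markers summed to 53.7 to 63.4 CPM in WT and 51.9 to 70.6 CPM in KO over 9 genes. Their part in the *Pdpn* and *Lyve1* values was not tested.

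The adhesion group differed in sign between members. The median log2 fold change of the 5 genes was 0.08, and −0.04 without WT replicate 4 or −0.02 without KO replicate 2. *Sele* encodes E-selectin, which activated endothelium shows to leukocytes, and lies on chromosome 1 from 163867401 to 163886055. It was at 13.4, 15.9, 12.5 and 14.3 CPM in WT replicates 1 to 4 and at 33.9, 22.2 and 12.4 CPM in KO replicates 2 to 4. KO replicates 2 and 3 were above all WT libraries, and KO replicate 4 was just below all of them. The mean was 14.0 ± 1.45 CPM (WT, SD, n = 4) against 22.8 ± 10.7 CPM (KO, SD, n = 3), a log2 fold change of 0.70 (SE 0.271, adjusted p = 0.489 in edgeR and 0.189 in DESeq2). It was 0.30 without KO replicate 2 and 1.0 without KO replicate 4.

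*Vcam1*, whose product holds leukocytes on activated endothelium and which perivascular and theca cells express as well, was at 25.9, 22.3, 22.9 and 18.8 CPM in WT and at 16.5, 17.8 and 19.0 CPM in KO. KO replicate 4 lay just above WT replicate 4. The log2 fold change was −0.34 (SE 0.107, adjusted p = 0.386 in edgeR).

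The highest members of the group were *Thbd*, which encodes the anticoagulant thrombomodulin, at a mean of 109 TPM, and *Icam1*, a leukocyte ligand gene, at 39.9 TPM. *Thbd* was at 329, 228, 281 and 183 CPM in WT and at 305, 285 and 220 CPM in KO. *Icam1* was at 68.8, 64.1, 59.1 and 48.4 CPM in WT and at 81.7, 68.0 and 51.2 CPM in KO. Their genotypes overlapped widely, with log2 fold changes of 0.08 (SE 0.191, adjusted p = 0.936) and 0.16 (SE 0.161, adjusted p = 0.827 in edgeR). *Selp*, the P-selectin gene, had a log2 fold change of −0.09 (SE 0.149).

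**Figure D5:**
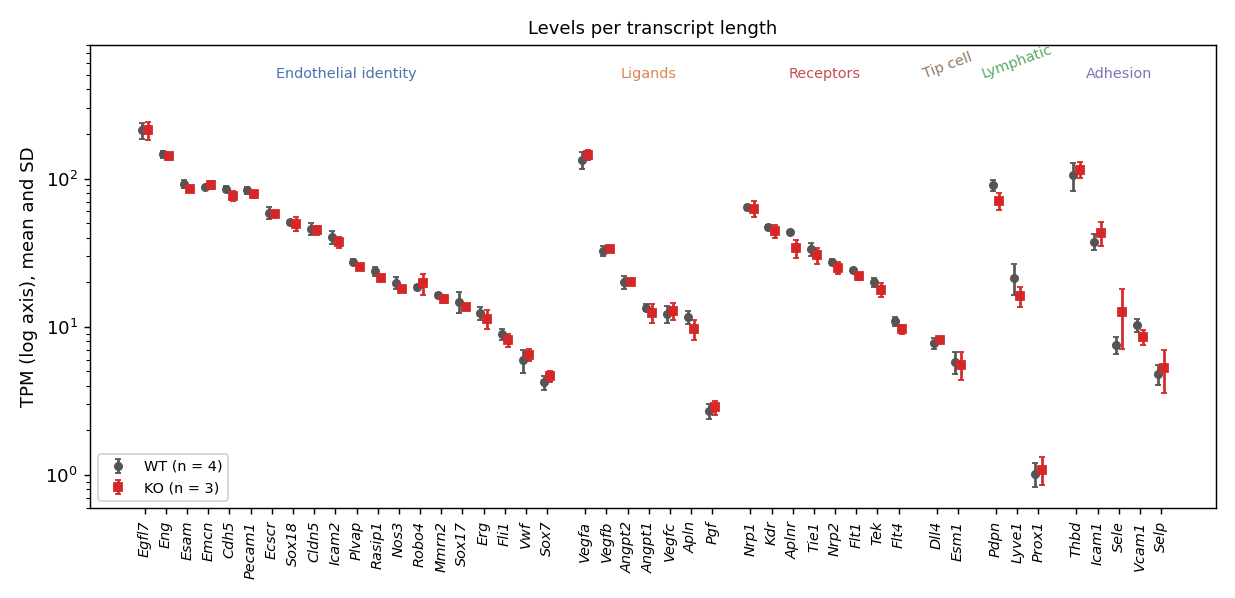
Mean TPM (log axis) with SD of the 45 genes in WT (n = 4, circles) and KO (n = 3, squares), ordered by level within each group. Levels run from 1.05 TPM for *Prox1* to 212 TPM for *Egfl7*, far wider than the difference between genotypes for any gene.

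Further lists placed the members beside related genes. Of 20 other endothelial genes, 9 had an unadjusted p under 0.05 with lower and 1 with higher values in KO (5.10% and 3.84% of all tested genes). The median log2 fold change of the 20 was −0.15, and in 8 the KO libraries were all below WT (5.12% of all tested genes). None was called in edgeR. *Clec14a*, which encodes a surface protein of endothelium, was at 131, 135, 130 and 138 CPM in WT and at 101, 99.0 and 109 CPM in KO. The groups were well apart (log2 fold change −0.37, SE 0.055, adjusted p = 0.102 in edgeR and 4.97e-06 in DESeq2). *Ets1*, an ETS factor gene, had a log2 fold change of −0.32 (adjusted p = 0.180 in edgeR and 0.00241 in DESeq2). *Cd34*, a sialomucin gene of endothelium and stromal progenitors and the highest of this list, had −0.39 (adjusted p = 0.252 and 0.0116). *Klf2*, the flow-responsive factor gene, was the gene with higher values (0.29, adjusted p = 0.382 in edgeR).

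Of 16 Notch and arteriovenous genes, 2 had lower values (*Efnb2* and *Dll1*) and 2 had higher values (*Hey1* and *Hey2*) at an unadjusted p under 0.05. Of all tested genes, 5.10% were lower and 3.84% higher at this limit. *Efnb2*, which encodes the arterial ligand ephrin-B2, had a log2 fold change of −0.33 (adjusted p = 0.237 in edgeR and 0.0189 in DESeq2), and *Hey1*, a Notch target, had 0.27 (adjusted p = 0.399 in edgeR). *Nr2f2*, the venous factor gene and the highest of the list, had −0.07.

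Of 14 other angiogenic ligands and receptors, 5 had lower and 2 had higher values at an unadjusted p under 0.05 (5.10% and 3.84% of all tested genes). *Cxcr4*, the receptor gene of the chemokine CXCL12, was at 29.9, 50.0, 34.6 and 57.2 CPM in WT and at 23.7, 21.4 and 20.7 CPM in KO. All KO libraries were below WT, and the log2 fold change was −0.97 (SE 0.210, adjusted p = 0.236 in edgeR and 0.000634 in DESeq2, which called it). Of all tested genes, 5.12% were lower in every KO library, and DESeq2 called 0.749%. The study gives *Cxcr4* as lower in PRKO granulosa cells, which remain in part in this tissue. Their part in this value was not tested. *Cxcl12* had 0.35 (adjusted p = 0.314 and 0.0330) and *Ednrb*, an endothelin receptor gene, −0.41 (adjusted p = 0.313 and 0.0443). *Angptl4*, the highest of the list, had −0.00.

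Of 9 angiogenesis inhibitors, *Spry4*, which encodes an inhibitor of growth factor signalling, was the gene with an unadjusted p under 0.05, at 0.16 (adjusted p = 0.441 in edgeR). Of all tested genes, 3.84% were higher at this limit. *Col18a1*, the source of endostatin, had 0.14 and *Serpinf1*, the highest of the list, −0.07. Of 12 hypoxia genes, 1 had lower and 1 had higher values at an unadjusted p under 0.05 (5.10% and 3.84% of all tested genes). The lower gene was *Epas1*, which encodes HIF-2 alpha, at −0.30 (SE 0.082, adjusted p = 0.318 in edgeR). The study lists *Epas1*, too, as lower in PRKO granulosa cells, whose part in this value was not tested. *Egln3*, a prolyl hydroxylase gene that hypoxia induces, was at 26.9, 27.9, 30.6 and 21.8 CPM in WT and at 33.5, 45.7 and 43.4 CPM in KO. All KO libraries were above WT (log2 fold change 0.61, SE 0.132, adjusted p = 0.236 in edgeR and 0.00422 in DESeq2, which called it). Of all tested genes, 3.93% were higher in every KO library, and DESeq2 called 0.749%. *Hif1a*, the highest of that list, had 0.09 (adjusted p = 0.762 in edgeR).

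Markers of other stromal cells were summed in the same libraries. Smooth muscle and pericyte markers summed to 2382 to 3040 CPM in WT and 1910 to 2402 CPM in KO over 10 genes. Of these, 5 had an unadjusted p under 0.05 (*Acta2*, *Tagln*, *Cnn1*, *Cspg4* and *Des*), all lower (5.10% of all tested genes). DESeq2 called *Cnn1* and *Des*, where it called 0.749% of all tested genes. The 5 genes with a higher p were at 79.5% of WT (*Myh11*), 92.1% (*Mcam*), 95.2% (*Notch3*), 96.7% (*Rgs5*) and 100% (*Pdgfrb*). Theca markers summed to 7598 to 9682 CPM in WT and 6626 to 7162 CPM in KO over 4 genes, without overlap between genotypes. Most of this sum was *Cyp11a1* (mean 6182 CPM in WT and 5446 CPM in KO), which overlapped on its own, as did *Cyp17a1* and *Insl3*. Only *Star* did not overlap (1 of 4 genes), where 5.12% of all tested genes were lower in every KO library. Fibroblast markers (2354 to 3607 and 2492 to 2702 CPM), red blood cell genes (335 to 422 and 354 to 637 CPM) and platelet genes (7.22 to 9.55 and 7.40 to 11.4 CPM over the 3 of 5 that passed the filter) overlapped between genotypes. No marker was at 0 in every library. The part of these cells in the receptor, *Vcam1* and *Sele* values was not tested.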

How the data were processed

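RNA-seq of granulosa cell-depleted ovary was analysed in 7 libraries (4 WT and 3 KO), grouped by the genotype in the labels. The authors prepared stranded mRNA libraries, sequenced paired 100 bp reads and quantified transcripts with Salmon against GENCODE M26 on GRCm39. The deposited files hold, per transcript, expected counts (estimated reads, not normalized), TPM (the authors' own values, scaled by transcript length and library size) and lengths. No per-sample column was left unmapped.

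Transcripts were matched by identifier to GENCODE M39 on GRCm39, which placed 137570 of 139225 (98.8%) and 99.37 to 99.40% of reads per library. Vegfa-201, Vegfa-202 and Flt1-203 differ in length between the files and M39, so their exons and coding lengths were read from the later release. Expected counts were summed per gene and rounded. The TPM of a gene is the sum over its transcripts.

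KO was compared with WT by edgeR 4.0.16 in R 4.3.3 (TMM, filterByExpr, two-sided quasi-likelihood test with legacy=TRUE). P-values were adjusted over 19233 genes by Benjamini–Hochberg. A call needed an adjusted p no higher than 0.05 and a log2 fold change of 0.5 or more in size. SEs were computed from the fold change and the F statistic. Ratios and isoform shares were compared by exact permutation tests (35 splits). Total reads ranged from 47372446 to 63416875 per library, and at this depth replicate spread (common biological coefficient of variation 0.127) limited the precision of the members more than counting. The code was tested on simulated data.

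Full values are given for members with an unadjusted p under 0.05 or called by DESeq2 and for the 2 members of each group with the highest TPM. In the further lists the genes called, those with the lowest 2 p-values and the most abundant are named, while *Klf2*, *Dll1*, *Hey2* and *Cxcl12* were picked once their values had been seen. The members and lists were chosen with earlier results of these data known. Alternatives were DESeq2 1.42.0 (which the study used), limma-voom (limma 3.58.1), legacy=FALSE, median-of-ratios size factors, no low-count filter, a minimum of 10 counts per library, offsets for transcript length, a replicate block, a granulosa marker covariate, expected counts in place of TPM, and leaving out each library. The libraries are separate pools of mice, the labels name no pairing, and p-values measure the spread between pools.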

Additional observations from a re-analysis of the deposited data

How the results depend on the processing

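No member was called under any of the 16 alternatives. An adjusted p of at most 0.05 was reached by 2 members with DESeq2. The 22 genes given in full have 352 log2 fold changes over the alternatives, and 16 of these genes, including all with an unadjusted p under 0.05, kept their sign. The others lay near 0. *Vegfb* was 0.00 with limma-voom, median-of-ratios size factors, no filter, a minimum of 10 counts per library and length offsets, 0.01 with the granulosa covariate and 0.04 with the replicate block, which gave 0.03 for *Egfl7* and 0.02 for *Esm1*. With each library left out, *Vegfb* ranged from −0.06 to 0.05, *Egfl7* from −0.15 to 0.07, *Esm1* from −0.23 to 0.10, *Thbd* from −0.04 to 0.24, *Vegfa* from −0.03 to 0.18 and *Icam1* from −0.01 to 0.32.

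With each library left out, the count at an unadjusted p under 0.05 ranged from 6 (without KO replicate 3) to 18 (without WT replicate 4), the lower genes from 6 to 17 in the same fits and the higher genes from 0 to 2. The higher count was 0 with limma-voom and 2 with the replicate block. The identity median ranged from −0.16 to −0.08 with each library left out (−0.08 without WT replicate 1). The lymphatic median was −0.42 with length offsets and −0.35 to −0.22 with each library left out (−0.22 without WT replicate 4 or KO replicate 3). The adhesion median ranged from −0.04 to 0.24, the latter without WT replicate 1. The Vegfa-202 difference was −0.61 percentage points with expected counts, −1.63 with the block, and −1.63 to 2.97 with each library left out. That of Vegfa-201 ranged from −0.06 to 4.24, that of secreted Flt1 from 0.34 to 1.61 and that of the log2 angiopoietin ratio from 0.06 to 0.29. The causes were not tested. Deviations of same-numbered libraries from their group means were weakly correlated (r of −0.026, 0.097 and 0.073 over 19233 genes). Differently numbered libraries had r from −0.113 to 0.072, so 0.097 and 0.073 were the highest values. All were near 0, and the numbers were not taken as pairs. The block gave 10 members at an unadjusted p under 0.05. The SEs, 0.057 to 0.271 on the log2 scale, limit what 7 libraries can resolve.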
